A study of Mus musculus with 6 samples.

Results

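The endoplasmic reticulum (ER) is where secreted and membrane proteins are folded. Calnexin and calreticulin are lectins that hold newly made glycoproteins there, and protein disulfide isomerases form and exchange the disulfide bonds of their clients. When unfolded proteins accumulate, sensors in the ER membrane start the unfolded protein response, whose transcription factors XBP1, ATF6 and ATF4 raise folding, degradation and amino acid genes, and whose factor CHOP, encoded by Ddit3, is associated with cell death. In the heart, calreticulin is needed for embryonic development, and cardiac myocytes keep most of their calcium in the sarcoplasmic reticulum, a specialized form of the ER.

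The 10 genes described here were the lectin chaperones Calr and Canx, with the calreticulin paralog Calr4, and the isomerases Pdia3, Pdia4, Pdia6 and P4hb. The stress factors Ddit3, Xbp1 and Atf4 made up the rest. All 10 genes were found as every row of the heart array table with one of these symbols. That gave 12 probes among 25697 and 10 genes among 18138 gene symbols. They were chosen with the hSRY-ON against hSRY-OFF values of the same 6 hearts already known. Their own levels and differences are therefore given as a description, with no test.

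The study activated human SRY, the sex-determining gene, throughout the mouse embryo, and compared the organs of the pups with those of controls. It reports that hSRY-ON pups hardly suckled, lacked milk in the stomach, grew more slowly and died early. Some of their hearts had areas of dying cells. Poor feeding and illness therefore went with the group, and their part in the values below was not tested. Hearts came from 3 hSRY-ON and 3 hSRY-OFF male pups of strain FVB (FVB/N in the methods) at postnatal day 6, with 1 array per heart. The Signalox-hSRY transgene was a single copy at the H11 locus of chromosome 11. Its ubiquitous CAG promoter drove DsRed2 before recombination, and FLAG-tagged human SRY with EGFP after it. In hSRY-ON pups, Cre protein carried over from the oocyte of a Ddx4-Cre mother recombined the transgene in the early embryo, and the pups taken for arrays did not carry Ddx4-Cre themselves. For hSRY-OFF, the methods name mice whose transgene had not been recombined, but elsewhere the study speaks of littermates with Ddx4-Cre alone or with no transgene. From the sources used here, these possibilities cannot be told apart for the control hearts. Expression of human SRY itself was not analysed here.

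Intensity is the mean brightness of the beads of a probe on a linear scale, and a probe was taken as above background at a detection p-value under 0.05 against the negative-control beads. Between 12138 and 13172 probes were above background on each array. On hSRY-OFF replicate 3, the mean intensity over all probes was 631, the lowest, and on the other arrays it was 723 to 939. Levels below are background-corrected, quantile normalized log2 intensities, and differences are log2 fold changes of hSRY-ON over hSRY-OFF, each with its standard error (SE) from limma's fit (n = 3 each). A probe was fitted when it was above background on at least 3 of the 6 arrays, which held for 12970 probes of 9660 genes. Levels of different probes cannot be set against each other, and a probe at background does not show that its transcript is absent. In whole hearts, fewer cells of a type and less RNA per cell cannot be told apart. Of 9 marker genes of cardiac myocytes, 8 were measured, and none was at background on all arrays.

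Calr4, a paralog of calreticulin, had the largest difference of the 10 genes. In the hSRY-OFF hearts its intensity was 147, 170 and 140 (replicates 1 to 3), and the probe was above background in none of them. In the hSRY-ON hearts it was 501, 463 and 370, and above background in all 3. On the log2 scale the levels were 4.52, 4.71 and 4.76 in the hSRY-OFF hearts and 8.66, 8.38 and 8.01 in the hSRY-ON hearts, so that the groups were separated by 3.24. Since the hSRY-OFF hearts had only a bound, Calr4 was at least 7.57-fold higher in hSRY-ON, taking for each hSRY-OFF array the lowest signal of a probe above background. The fitted log2 fold change was 3.68 (SE 0.18), which is no measured size, since the hSRY-OFF hearts were at background.

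The size of the Calr4 difference depended on the background correction. Without that correction the fitted log2 fold change was 1.64 and the bound was at least 2.60-fold. With a larger offset of 50 added before the logarithm the fitted value was 2.60. Leaving out any 1 heart kept it between 3.55 and 3.85.

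Calr encodes calreticulin, the soluble lectin and calcium store of the ER lumen. Its log2 levels were 10.64, 10.04 and 10.88 in the hSRY-OFF hearts and 11.03, 10.50 and 10.92 in the hSRY-ON hearts. The groups overlapped, since hSRY-ON replicate 2 lay below hSRY-OFF replicates 1 and 3. The log2 fold change was 0.29 (SE 0.24), smaller than the SD of 0.43 among the hSRY-OFF hearts. The heart-to-heart range of Calr in hSRY-OFF was 0.84, whereas that of Calr4 in hSRY-ON was 0.65.

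Canx encodes calnexin, the membrane-bound partner of calreticulin. Its only probe did not rise above background on any array, with intensities of 149, 165 and 126 in hSRY-OFF and 139, 138 and 137 in hSRY-ON replicates 1 to 3. No difference is given for Canx.

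**Figure D1:**
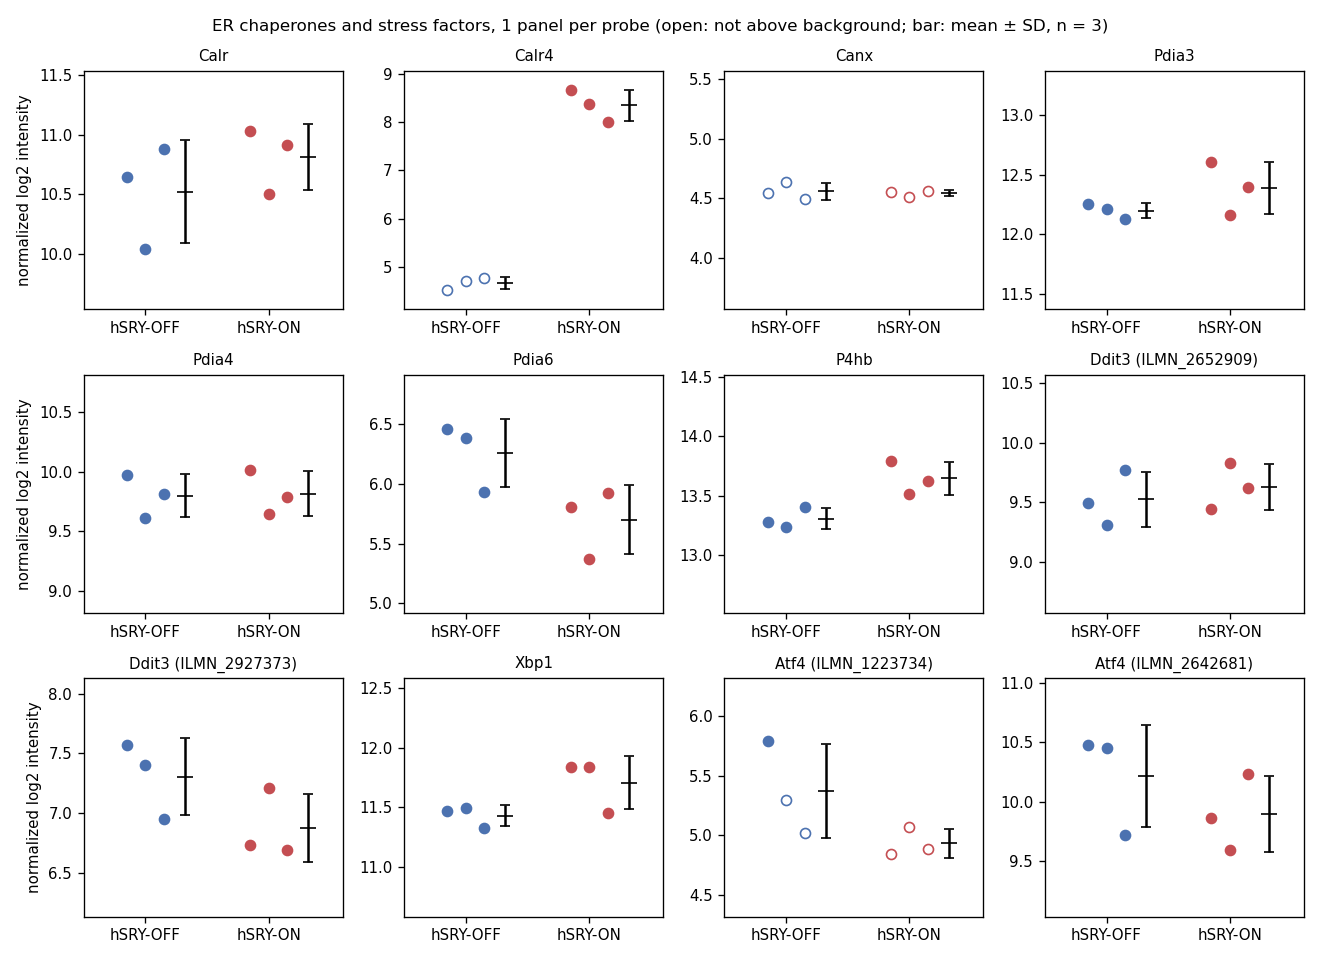
Normalized log2 intensity of the 12 probes in each heart, 1 panel per probe with its own axis, hSRY-OFF in blue and hSRY-ON in red, open circles for arrays on which the probe was not above background, and black bars for the mean ± SD (n = 3). Calr4 moved from open circles near 4.7 to filled circles above 8, the Canx panel holds open circles only, and in most other panels the groups overlap or nearly meet.

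The isomerases were measured on all arrays and differed far less than Calr4. Pdia3 encodes ERp57, the isomerase that works with calreticulin and calnexin on glycoproteins. Its log2 levels were 12.26, 12.21 and 12.13 in the hSRY-OFF hearts and 12.61, 12.16 and 12.40 in the hSRY-ON hearts. Only hSRY-ON replicate 2 lay within the hSRY-OFF range, and the log2 fold change was 0.19 (SE 0.14).

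P4hb encodes the archetypal protein disulfide isomerase, which is also the beta subunit of collagen prolyl 4-hydroxylase. Its log2 levels were 13.28, 13.24 and 13.41 in the hSRY-OFF hearts and 13.80, 13.52 and 13.63 in the hSRY-ON hearts. The groups did not overlap, with a gap of 0.11 between the highest hSRY-OFF and the lowest hSRY-ON heart. The log2 fold change was 0.34 (SE 0.13). It stayed above 0 under all 16 alternatives, between 0.17 without normalization between the arrays and 0.40 without hSRY-ON replicate 2.

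Pdia4 encodes ERp72, an isomerase found in complexes with other ER chaperones. Its log2 levels were 9.97, 9.61 and 9.81 in the hSRY-OFF hearts against 10.02, 9.64 and 9.79 in the hSRY-ON hearts. The groups lay on top of each other, and the log2 fold change of 0.02 (SE 0.15) turned below 0 under 3 of the 16 alternative settings.

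Pdia6 encodes P5, an isomerase that also acts on the stress sensor IRE1. Its log2 levels were 6.46, 6.39 and 5.94 in the hSRY-OFF hearts and 5.81, 5.37 and 5.93 in the hSRY-ON hearts. The log2 fold change was -0.56 (SE 0.20), and it was -0.18 without background correction. The groups did not overlap, but only 0.0087 separated hSRY-OFF replicate 3 from hSRY-ON replicate 3. The probe was dim. Before any correction its intensity was 247, 258 and 171 in the hSRY-OFF hearts against 184, 174 and 187 in the hSRY-ON hearts, so that hSRY-OFF replicate 3 was then the lowest of all 6.

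Within the hSRY-ON group, Calr, Pdia3, Pdia4 and P4hb shared the same order of hearts, with replicate 1 highest and replicate 2 lowest. The range over these 3 hearts was 0.53 for Calr, 0.44 for Pdia3, 0.38 for Pdia4 and 0.28 for P4hb. For Calr, Pdia3 and Pdia4 this range was larger than the difference between the groups.

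Xbp1 encodes the transcription factor that the sensor IRE1 activates by splicing its mRNA. The array gave 1 level for the transcript, and its spliced form was not analysed here. The log2 levels were 11.47, 11.50 and 11.33 in the hSRY-OFF hearts and 11.84, 11.84 and 11.45 in the hSRY-ON hearts. Of the hSRY-ON hearts, replicates 1 and 2 lay above every hSRY-OFF heart and replicate 3 lay among them. The log2 fold change was 0.28 (SE 0.15), and it stayed above 0 under all 16 alternatives, between 0.18 and 0.41.

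Ddit3 encodes CHOP, and its 2 probes differed in sign. The probe ILMN_2652909 had log2 levels of 9.50, 9.31 and 9.77 in the hSRY-OFF hearts and 9.45, 9.83 and 9.62 in the hSRY-ON hearts, with a log2 fold change of 0.11 (SE 0.16). The probe ILMN_2927373 had levels of 7.57, 7.40 and 6.95 in the hSRY-OFF hearts and 6.73, 7.21 and 6.69 in the hSRY-ON hearts, with a log2 fold change of -0.43 (SE 0.21). The groups overlapped for both probes, and the first lay below 0 under 1 of the 16 alternatives. The array therefore gave no single direction for Ddit3.

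Atf4 encodes the factor that is translated when the kinase PERK phosphorylates eIF2alpha, a control on its protein that a transcript level does not show. The probe ILMN_2642681 had log2 levels of 10.48, 10.45 and 9.72 in the hSRY-OFF hearts and 9.87, 9.60 and 10.23 in the hSRY-ON hearts. The groups overlapped, since hSRY-OFF replicate 3 lay below hSRY-ON replicates 1 and 3, and the log2 fold change was -0.32 (SE 0.25). The probe ILMN_1223734 was above background only in hSRY-OFF replicate 1, with an intensity of 207 against 148 to 198 in the other hSRY-OFF hearts and 152 to 164 in hSRY-ON, and was not fitted.

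Of the 12 probes, 10 from 9 genes could be fitted. The log2 fold change was above 0 in 7 of them and below 0 in 3, with a median of 0.15 where the median over all fitted probes was -0.0046. The threshold used for all probes was an adjusted p-value (Benjamini-Hochberg) under 0.05. As a description and not a test of genes chosen on this contrast, 1 of the 10 probes was past it, that of Calr4 (higher in hSRY-ON), which entered the fit only through the hSRY-ON hearts, and 0 were lower. Over all 12970 probes 27.5% passed, 13.8% higher and 13.7% lower in hSRY-ON. Higher probes were 50.1% of those that passed, and 38.5% without normalization between the arrays. The groups did not overlap for 3 of the 10 probes, those of Calr4, P4hb and Pdia6, where the share over all fitted probes was 45.2%. Apart from Calr4, the largest difference was 0.56 in size, and the median SE over all probes was 0.16.

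**Figure D2:**
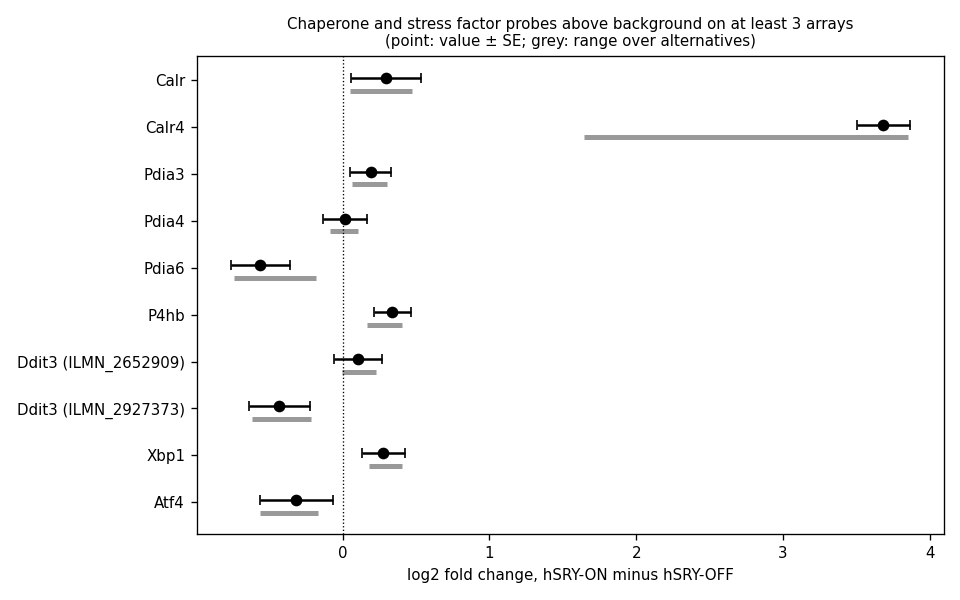
Log2 fold change, hSRY-ON minus hSRY-OFF, of the 10 fitted probes, with black points and bars for the value ± SE (n = 3 each) and grey bars for the range over the alternative settings, hearts left out in turn included. The fitted value of Calr4, whose hSRY-OFF hearts were at background, is drawn at 3.68 with a range from 1.64 to 3.85, and the other 9 probes lie between -0.56 and 0.34.

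The sequence around the start sites was read to see which of these genes carry the ER stress element, the paired site at which ATF6 with NF-Y, and also XBP1, act on chaperone genes. The element was searched as CCAAT and CCACG with 9 bases between, on both strands, in windows from 250 bases before to 50 bases after each transcription start of RefSeq on GRCm38.p6. All 10 genes had at least 1 window, 13 in all, since Calr4 had 4. An exact match lay in 1 window each of Calr, Calr4, Canx and Pdia6, whereas 39 of all 32851 windows (0.119%) held one. These sites are shown because Calr4 shares the element with Calr, Canx and Pdia6. Each is read from its CCAAT end, with the fixed bases in capitals.
Calr: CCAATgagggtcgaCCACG
Calr4: CCAATggttggggaCCACG
Canx: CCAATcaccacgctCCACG
Pdia6: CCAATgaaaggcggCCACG

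The windows of both calreticulin genes are given whole, 5′ to 3′ on the strand of the gene, with the match in capitals, which in both runs on the opposite strand. The Calr window is chr8:84846882-84847181 on the minus strand and the Calr4 window is chr4:109218163-109218462 on the plus strand, both GRCm38.p6.
Calr: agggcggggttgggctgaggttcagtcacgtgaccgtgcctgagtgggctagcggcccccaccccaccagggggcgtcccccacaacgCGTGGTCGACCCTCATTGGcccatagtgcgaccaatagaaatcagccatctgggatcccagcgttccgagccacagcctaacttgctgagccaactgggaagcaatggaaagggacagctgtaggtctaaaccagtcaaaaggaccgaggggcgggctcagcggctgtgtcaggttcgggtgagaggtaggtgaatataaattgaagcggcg
Calr4: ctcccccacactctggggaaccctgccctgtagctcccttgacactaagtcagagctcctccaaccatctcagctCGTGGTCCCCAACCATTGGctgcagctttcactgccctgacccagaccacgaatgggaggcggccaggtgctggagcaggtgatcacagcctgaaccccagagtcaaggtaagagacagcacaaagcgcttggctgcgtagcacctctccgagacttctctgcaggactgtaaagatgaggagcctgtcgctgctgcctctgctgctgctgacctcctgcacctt

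Counted from the start site, the match ran from -162 to -144 in Calr, from -175 to -157 in Calr4, from -145 to -127 in Canx and from -98 to -80 in Pdia6. Canx and Pdia6 lie in the windows chr11:50325624-50325923 on the minus strand and chr12:17266339-17266638 on the plus strand. The windows of Pdia3, Pdia4, P4hb, Ddit3, Xbp1 and Atf4 and the other 3 windows of Calr4 held no exact match, which says only that these letters are not there.

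**Figure D3:**
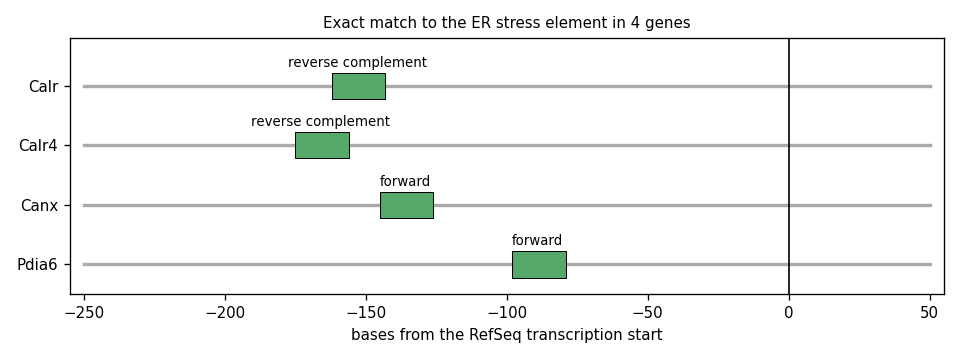
Position of the exact match to the ER stress element (green box) in the start-site windows of 4 genes, in bases from the RefSeq transcription start at 0, with the strand of the match written above. The boxes lie between -175 and -80, on the reverse strand in Calr and Calr4 and on the forward strand in Canx and Pdia6.

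Other motifs were searched in the same windows. The second ER stress element (ATTGG and CCACG with 1 base between), the XBP1 element TGACGTGG, the composite C/EBP-ATF site TTGCATCA and the SOX motif AACAAT matched in none of the 13 windows, against 0.0365%, 0.676%, 0.895% and 10.7% of all windows. The SOX motif AACAAAG, of the kind that the DNA-binding domain of SRY and its relatives recognizes, matched in 1 window, that of Pdia4, against 5.85% of all windows. The XBP1 element ends in the reverse complement of CCACG, and no match overlapped another in these windows.

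Other genes with the ER stress element were read from the same fit. The element lay in a window of 37 genes, of which 20 had a row in the array table and 12 could be fitted. Of these, 9 were genes other than the 10 described here, namely Alg12, Creld2, Dnajc3, Ero1b (Ero1lb), Hsp90b1, Pan2 (Usp52), Spats2l (2810022L02Rik), Syvn1 and Zfp57. None passed the threshold in limma in either direction, where 28.8% of all 9660 genes did. One of them, Dnajc3, had an unadjusted p-value under 0.05, as did 5228 of all 12970 probes, and passed under 3 of the 16 alternatives. Creld2, Dnajc3, Ero1lb, Hsp90b1 and Syvn1 are also in the pathway lists below. The log2 fold changes of the 9 genes ran from -0.22 to 0.53 with a median of -0.08. Ero1lb was near background, above it in 1 hSRY-OFF and 3 hSRY-ON hearts.

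**Figure D4:**
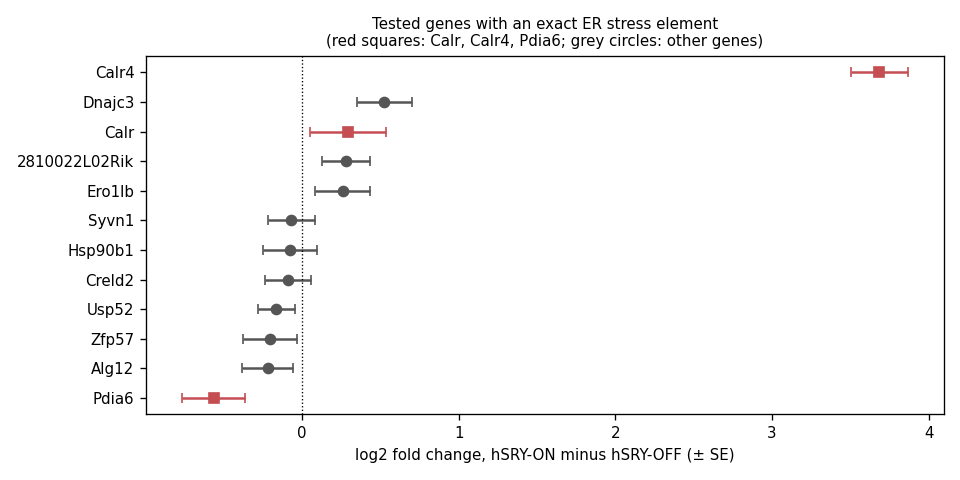
Log2 fold change, hSRY-ON minus hSRY-OFF (± SE, n = 3 each), of the 12 fitted genes with an exact match to the ER stress element, under the symbols of the array table, with red squares for Calr, Calr4 and Pdia6 and grey circles for the other 9 genes. The grey circles lie between -0.22 and 0.53, and the fitted value of Calr4, whose hSRY-OFF hearts were at background, is drawn at 3.68.

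The rest of the pathway was read from 7 lists of genes grouped by role, with the 10 genes above left out and each gene given by its brightest probe. Of 150 listed genes, 138 were in the table and 107 could be fitted, of which 25 rose in hSRY-ON, 2 fell and 80 did not pass the test. The share that passed was 25.2% (23.4% higher, 1.87% lower), against 28.8% (14.9% higher, 13.9% lower) of all 9660 genes. The median log2 fold change was 0.19, and over all genes it was 0.0026. Of the 27 genes that passed, 8 did so under every alternative that tested them, 7 were lost only without normalization between the arrays, and the others are marked below. Without that normalization, the fit gave Sil1, Prdx4, Tmx4 (Txndc13) and Edem2 the same SE of 0.30, whatever their own spread. The log2 fold change of Prdx4 was 0.50 there, against 0.64. A call lost only in that setting therefore cannot be put down to the normalization rather than to this SE.

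Among the Hsp70 and Hsp90 chaperones of the ER and their partners, 2 of 11 fitted genes rose, none fell, and the median was 0.23. Sil1, a nucleotide exchange factor of the ER Hsp70 BiP, rose from 8.08, 7.88 and 8.32 in hSRY-OFF to 8.69, 8.74 and 8.80 in hSRY-ON, a log2 fold change of 0.65 (SE 0.14, adjusted p = 0.0137). Its adjusted p was 0.0509 without hSRY-OFF replicate 1 and reached 0.276 without normalization between the arrays. Sdf2 was the other, at 0.42 (SE 0.13, adjusted p = 0.0420), and lost the call under 8 alternatives, with adjusted p up to 0.585, and its other probe, at 0.36, did not pass. Hsp90b1, which encodes GRP94, stood at -0.08 (SE 0.17, adjusted p = 0.774) and Dnajb9, a BiP co-chaperone and XBP1 target, at 0.10 (SE 0.17, adjusted p = 0.697). Hspa5, which encodes BiP itself, had 1 probe, which did not exceed background in any heart.

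Other isomerases and ER oxidases had the highest share of changes, with 6 of 13 fitted genes higher (46.2%), none lower, and a median of 0.34. Txndc5, an isomerase of the same family as P4hb, had levels of 11.31, 11.24 and 11.48 in the hSRY-OFF hearts and 13.70, 13.09 and 12.73 in the hSRY-ON hearts. It rose by 1.83 (SE 0.24, adjusted p = 0.00164) and passed under all 16 alternatives. The sulfhydryl oxidase gene Qsox1 rose by 1.27 (SE 0.15, adjusted p = 0.00108). P4ha3 and P4ha2, catalytic subunits of collagen prolyl 4-hydroxylase that pair with the product of P4hb, rose by 1.31 (SE 0.16, adjusted p = 0.00146) and 0.75 (SE 0.13, adjusted p = 0.00588). P4ha3 was near background in the hSRY-OFF hearts, at 5.97, 5.43 and 5.59. Its log2 fold change was 0.49 without background correction and 0.91 with an offset of 50. P4ha1, the other catalytic subunit, stood at -0.58 (SE 0.26, adjusted p = 0.139) and passed under 2 alternatives, one of them without hSRY-OFF replicate 3 (adjusted p = 0.0499). The peroxiredoxin gene Prdx4 rose by 0.64 and Tmx4 (Txndc13), a membrane-bound thioredoxin relative, by 0.68, but the other probe of Tmx4, at 0.29, did not pass. Of these 6, P4ha2, Prdx4 and Tmx4 lost the call only without normalization between the arrays.

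In the N-glycan trimming and lectin cycle, where the products of Calr and Canx act, 2 of 10 fitted genes rose, none fell, and the median was 0.16. Edem2, which trims mannose from misfolded glycoproteins, rose by 0.61 (SE 0.13, adjusted p = 0.0113), but its other 2 probes, at 0.03 and 0.55, did not pass, and the call was lost without normalization between the arrays. Lman2, a cargo lectin, rose by 0.47 (SE 0.12, adjusted p = 0.0261) and lost the call under 7 alternatives, with adjusted p up to 0.501.

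Of the sensors and regulators of the unfolded protein response, 3 of 14 fitted genes rose, 1 fell, and the median was 0.32. Wfs1, an ER membrane protein gene induced by ER stress, rose from 9.40, 9.03 and 9.46 in hSRY-OFF to 11.18, 11.32 and 11.27 in hSRY-ON. Its log2 fold change was 1.96 (SE 0.15, adjusted p = 0.000204), and it passed under all 16 alternatives. Creb3, an ER-bound transcription factor gene, rose by 0.67 (SE 0.12, adjusted p = 0.00584) and lost the call only without normalization between the arrays. Crebrf (A930001N09Rik), a regulator of CREB3, was above background in 0 hSRY-OFF and 3 hSRY-ON hearts, with a bound of at least 1.07-fold, and lost the call under 13 alternatives, with adjusted p up to 0.501. Nck1, an adaptor gene tied to eIF2alpha dephosphorylation, fell by 0.56 (SE 0.18, adjusted p = 0.0499) and lost the call under 8 alternatives. Among them were those without hSRY-OFF replicate 1 (adjusted p = 0.152), hSRY-OFF replicate 2 (0.139), hSRY-ON replicate 1 (0.108) and hSRY-ON replicate 3 (0.125). Ppp1r15a (Myd116), whose product GADD34 restores translation, stood at 0.58 (SE 0.20, adjusted p = 0.0688) and passed under 5 alternatives, one of them without hSRY-OFF replicate 3 and the lowest adjusted p being 0.0236. The sensor gene Ern1, which encodes IRE1alpha, had 1 probe, at background in every heart, and the symbols of Eif2ak3 and Atf6 matched no row used here.

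**Figure D5:**
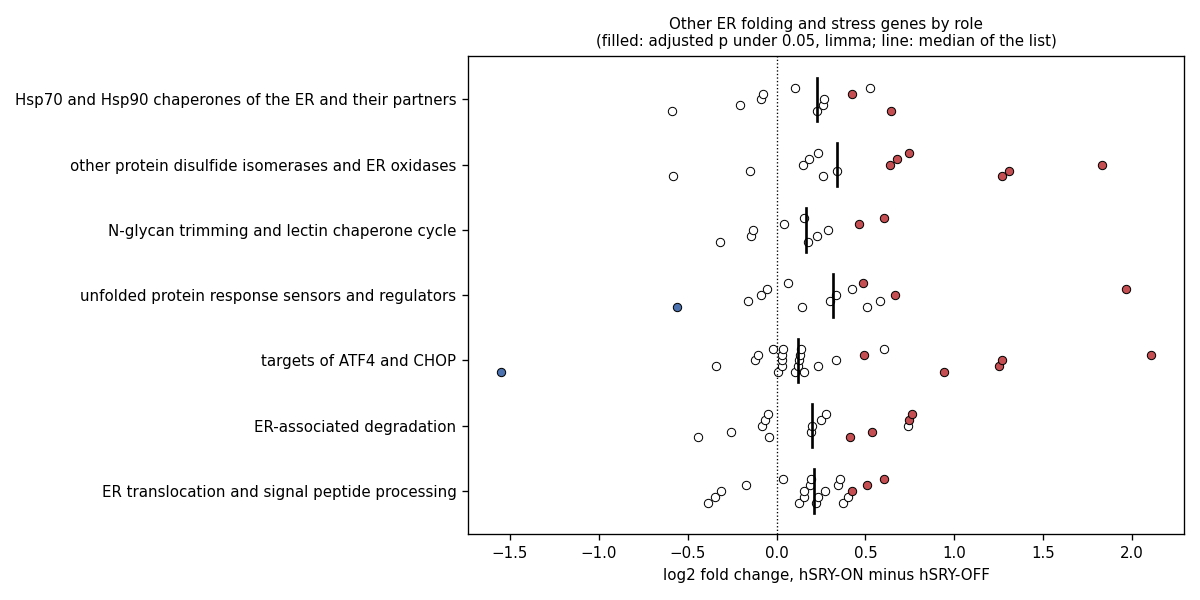
Log2 fold change, hSRY-ON minus hSRY-OFF, of each fitted gene in the 7 pathway lists (1 row per list, points spread vertically for legibility), with filled points for an adjusted p under 0.05 in limma, red for higher and blue for lower, and a black line for the median of the list. Filled red points appear in every row, most often among the other isomerases and oxidases, and the 2 filled blue points are Nck1 at -0.56 and Gdf15 at -1.55.

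Of the targets of ATF4 and CHOP, 5 of 24 fitted genes were higher and 1 was lower, with a median of 0.12. These shares were 20.8% and 4.17%, against 14.9% and 13.9% of all 9660 genes. Stc2, which encodes the glycoprotein stanniocalcin 2, rose from 7.23, 7.17 and 7.57 to 9.73, 9.85 and 8.70, a log2 fold change of 2.11 (SE 0.30, adjusted p = 0.00233). The serine synthesis genes Psat1 and Phgdh rose by 1.27 (SE 0.13, adjusted p = 0.000716) and 0.94 (SE 0.20, adjusted p = 0.0120). Ddit4, an inhibitor of mTORC1 signaling, rose by 1.25 (SE 0.39, adjusted p = 0.0475) and lost the call under 7 alternatives, with adjusted p up to 0.129. Eprs, a tRNA synthetase gene, rose by 0.49 (SE 0.15, adjusted p = 0.0413) and lost it under 8, with adjusted p up to 0.491, and its other probe, at 0.33, did not pass. Gdf15, a secreted stress cytokine gene, fell from 6.42, 6.72 and 7.53 to 5.56, 5.47 and 4.98, a log2 fold change of -1.55 (SE 0.29, adjusted p = 0.00728). Its probe was above background in 3 hSRY-OFF and 2 hSRY-ON hearts. The lowest signal above background on the hSRY-ON arrays was 5.28 to 5.39, so the size of this fall is not well measured. Stc2, Psat1, Phgdh and Gdf15 passed under every alternative that tested them. Asns, asparagine synthetase, stood at 0.16 (SE 0.19, adjusted p = 0.584), Chac1, a glutathione-degrading enzyme gene, at 0.01 (SE 0.15, adjusted p = 0.971), and the pseudokinase gene Trib3 at -0.02 (SE 0.12, adjusted p = 0.921).

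In ER-associated degradation, 4 of 15 fitted genes rose, none fell, and the median was 0.20. The genes were Sel1l, the adaptor of the HRD1 ligase, at 0.53 (SE 0.11, adjusted p = 0.00956), Selenos (H47), at 0.74 (SE 0.12, adjusted p = 0.00426), Nploc4, at 0.41 (SE 0.11, adjusted p = 0.0297), and the conjugating enzyme gene Ube2g2, at 0.76 (SE 0.21, adjusted p = 0.0315). A second probe of Sel1l, at 0.21, did not pass, and that of Selenos, at 0.51, did. Sel1l and Selenos lost the call only without normalization between the arrays, Ube2g2 under 5 alternatives and Nploc4 under 8. The adjusted p of Ube2g2 was 0.0842 without hSRY-OFF replicate 2, 0.0568 without hSRY-ON replicate 2 and 0.0832 without hSRY-ON replicate 3, and that of Nploc4 reached 0.606. Herpud1, an ER stress target in this machinery, stood at 0.19 (SE 0.16, adjusted p = 0.391).

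In translocation and signal peptide processing, 3 of 20 fitted genes rose, none fell, and the median was 0.21. Sec61a1, the channel subunit, rose by 0.60 (SE 0.14, adjusted p = 0.0187), Srprb, of the signal recognition particle receptor, by 0.51 (SE 0.12, adjusted p = 0.0175; by 0.75 at its other probe) and Dad1, of the oligosaccharyltransferase, by 0.43 (SE 0.13, adjusted p = 0.0477). Sec61a1 lost the call under 4 alternatives, Srprb under 2 and Dad1 under 10, with adjusted p up to 0.306, 0.425 and 0.633. The adjusted p of Sec61a1 was 0.0731 without hSRY-OFF replicate 1, 0.0639 without hSRY-OFF replicate 2 and 0.0683 without hSRY-ON replicate 1.

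Markers of several cell types moved with the groups, and their summed levels, over the same probes in each heart and weighted to the brightest ones, are on the linear, normalized scale. Of 7 macrophage genes, 5 rose and none fell. Csf1r (0.40) and Emr1 (-0.21) did not pass, and the groups overlapped for both. Emr1 was above background in 2 hSRY-OFF hearts and 1 hSRY-ON heart. The sums of the 7 genes were 3043 to 4064 (hSRY-OFF) and 6990 to 7254 (hSRY-ON). Of 6 hepatocyte genes, Ttr and Ahsg could be fitted and both rose, Ttr having entered the fit only through the hSRY-ON hearts (above background in 0 hSRY-OFF hearts, at least 3.87-fold higher), while Alb, Fgb and Serpina1a were at background in every heart. The sums of Ttr and Ahsg alone, with the rest of that list left out, were 219 to 288 (hSRY-OFF) and 1095 to 2970 (hSRY-ON). Of 8 cardiac myocyte genes, 4 fell and none rose, the sum being 160358 to 171661 (hSRY-OFF) and 149825 to 159040 (hSRY-ON). That sum rests on probes at the top of the array's range, such as Myl2, at a level of 15.37 in all 3 hSRY-ON hearts. Of 6 smooth muscle and pericyte genes, 2 rose, Acta2 by 0.53 and Tagln by 1.81, and none fell. Rgs5 (-0.57), Pdgfrb (-0.43), Myh11 (-0.42) and Cspg4 (0.47) did not pass. The sums were 27485 to 33140 (hSRY-OFF) and 40251 to 44156 (hSRY-ON). They rest mostly on Acta2, at levels of 14.60 to 14.88 (hSRY-OFF) and 15.21 to 15.34 (hSRY-ON), whose other 3 fitted probes are not given here. Of 4 adipocyte genes, 2 rose, Adipoq and Ucp1, with overlapping sums of 1867 to 2639 (hSRY-OFF) and 1101 to 3656 (hSRY-ON). The groups overlapped for Ucp1, which was above background in 1 hSRY-OFF and 3 hSRY-ON hearts. Cidea, at -1.05 with groups that did not overlap, and Cfd, at 1.26, did not pass. Among fibroblast genes 1 of 7 rose. Of 6 endothelial genes 1 rose and 2 fell, of 5 erythroid genes 1 fell, and the only fitted gene of B and plasma cells did not pass. The part of these cells in the Calr4 and pathway values was not tested.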

How the data were processed

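Gene expression was measured in 6 hearts with 1 MouseRef-8 BeadChip array each, and groups and replicate numbers came from the sample labels. The authors deposited mean bead intensities on a linear scale, not normalized, and a detection p-value for each probe and array against negative-control beads. No background had been subtracted, since the lowest intensity of each array was 110 to 135. The bead summary software is not given in the sources used here. The methods name the R package TCC without settings, and the processing notes name limma, which was used here.

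In R 4.3.3 with limma 3.58.1, the background was corrected by normexp with negative controls inferred from the detection p-values and an offset of 16, the arrays were quantile normalized, and log2 was taken. Probes with detection p under 0.05 on at least 3 of 6 arrays were fitted with lmFit and eBayes, group being the only term, two-sided, with Benjamini-Hochberg adjustment over all fitted probes. The steps were tested on simulated data. Where nothing states that replicates came from separate litters, p-values measure the spread between these 3 pups per group, and the number of arrays limits the precision. Lists were read by counts, each gene by its brightest fitted probe (mean of all arrays). Where a group had no array above background, the bound compares the other group's mean with a floor, for each dim array its lowest signal above background (or that of the probe, if higher), averaged over the dim arrays on the log2 scale.

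The members, lists, motifs and tests were chosen with earlier results of these data known. Genes named are the 10 members, the gene with the largest increase and that with the largest decrease among those of each list that passed, 11 genes named whatever their values (Hspa5, Hsp90b1, Ern1, Eif2ak3, Atf6, Asns, Trib3, Chac1, Herpud1, Dnajb9 and Ppp1r15a), and, after their values were seen, the other genes that passed, P4ha1, and those with the ER stress element. The start-site windows are from RefSeq (GRCm38.p6) and were searched with Python 3.11.15, and matplotlib 3.10.9 drew the figures. The 16 alternatives changed the background step, the normalization, the probe filter, the variance model or the replicate block, or left out 1 heart, and a further one took every fitted probe of a list gene.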

Additional observations from a re-analysis of the deposited data

How the results depend on the processing

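Of the member probes, Calr4 kept its direction under the 15 alternatives that fitted it (detection on all 6 arrays removed it), and only Pdia4 and 1 Ddit3 probe changed sign under any of the 16. The number of member probes past the threshold was 0 where Calr4 was removed, 2 without background correction, with the intensity trend and without hSRY-OFF replicate 3, and 1 under the others. Without normalization between the arrays, 1897 probes passed instead of 3567, with 38.5% of them higher instead of 50.1%. The median of all probes moved to -0.12, and 9 pathway genes passed instead of 27, 8 higher and 1 lower. In that setting each fitted member probe had the same SE of 0.30, so lost calls there do not reflect the normalization alone. Leaving out 1 heart at a time gave 2239 to 3714 probes, lowest without hSRY-OFF replicate 1, and 17 to 30 pathway genes, lowest without hSRY-OFF replicate 1 or 2. Without hSRY-OFF replicate 3, 25 pathway genes were higher and 5 lower. Under the other alternatives the pathway count was within 1.5 times the main one, and more genes were higher than lower under all 16. The replicate numbers are not stated to pair the hearts, so they were not taken as pairs. Over all probes, the deviations of hearts with the same number had correlations of -0.02, 0.04 and -0.07, which cannot exclude pairing for some probes. With the replicate block, 2842 probes and 22 pathway genes passed, 19 higher and 3 lower, and the SE of Calr was 0.14 instead of 0.24. Signal over background limits Calr4, Canx, Pdia6 and 1 Atf4 probe, which were at or near background in at least 1 group. Among the pathway genes, so were Crebrf, Gdf15, P4ha3 and Ero1lb, and also others not named here.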
